A study of Mus musculus with 7 samples.

Results

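The hepatic coagulation factor genes described here are 10 genes of the clotting system whose products are made by liver cells. They are the fibrinogen chains Fga, Fgb and Fgg, prothrombin (F2), factors V, VII, IX and X (F5, F7, F9 and F10), plasminogen (Plg) and antithrombin (Serpinc1). They were chosen by name, and all 10 were found among the 38924 genes of the count files. Fetal liver of the mouse at 12.5 days post coitum had been profiled by messenger RNA sequencing in 4 wild-type libraries (replicates 1 to 4) and 3 Pcbp2 knockout libraries (replicates 3 to 5). The labels give the knockout as PCBP2 knockout and name no strain, allele, sex or litter, and they do not say that each library came from a separate animal. The p-values therefore measure the spread between these libraries, which may be technical. Reads assigned to genes ranged from 31898339 to 44544889 per library. Pcbp2, a poly(C)-binding protein that acts on RNA, fell from 295 ± 86.9 CPM (reads per 1000000 reads in genes, TMM scaled; SD, n = 4) to 1.95 ± 0.486 CPM (SD, n = 3), a log2 fold change of -7.26 ± 0.34 (SE; edgeR adjusted p = 1.29e-05). Wild type replicate 1 was lower than the other wild-type libraries in Pcbp2, at 165 CPM.

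Clotting runs as a cascade of proteases that circulate in plasma as inactive precursors. Factor VII starts it on exposed tissue factor, factors IX and X carry it forward, and factor X with its cofactor factor V turns prothrombin into thrombin. Thrombin cuts fibrinogen, a protein built of alpha, beta and gamma chains, into fibrin. Plasmin, made from plasminogen, dissolves the fibrin, and antithrombin blocks thrombin and activated factor X. Prothrombin and factors VII, IX and X need vitamin K for their maturation. In the fetus these genes are markers of the hepatoblast, the precursor of hepatocytes and bile duct cells, which at this age shares the liver with a large population of blood-forming cells.

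In build mm10 the fibrinogen genes lie side by side on chromosome 3, with Fgg from 83007724 to 83015049, Fga from 83026076 to 83033627 and Fgb, on the opposite strand, from 83040141 to 83049863. F7 (13026034 to 13035809) and F10 (13037308 to 13056676) follow each other on chromosome 8 on the same strand, 1498 bases apart. Serpinc1 (160978585 to 161005863) and F5 (164151838 to 164220277) are both on chromosome 1, with 34 other protein-coding genes between them. F2 lies on chromosome 2 from 91625320 to 91636414, Plg on chromosome 17 from 12378608 to 12419385 and F9 on chromosome X from 59999464 to 60030759. The stretches before the start sites of 4 members are printed below, because the levels of the members varied together across libraries. They comprise Fgb and Fgg of the fibrinogen locus, F7, the 1 member with an exact match to the HNF4 element, and Serpinc1, the member with the smallest p. They are the 250 bases before the RefSeq start (GRCm38.p6), read 5′ to 3′ on the strand of the gene. Capitals mark elements searched for on both strands, and a sequence without capitals holds none of them.
Fgb (chr3:83049864-83050113): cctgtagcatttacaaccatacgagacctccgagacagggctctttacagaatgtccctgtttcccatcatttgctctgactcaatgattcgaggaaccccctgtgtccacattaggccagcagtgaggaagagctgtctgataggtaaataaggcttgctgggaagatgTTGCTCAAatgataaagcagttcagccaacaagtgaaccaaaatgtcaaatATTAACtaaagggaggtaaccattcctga
Fgg (chr3:83007474-83007723): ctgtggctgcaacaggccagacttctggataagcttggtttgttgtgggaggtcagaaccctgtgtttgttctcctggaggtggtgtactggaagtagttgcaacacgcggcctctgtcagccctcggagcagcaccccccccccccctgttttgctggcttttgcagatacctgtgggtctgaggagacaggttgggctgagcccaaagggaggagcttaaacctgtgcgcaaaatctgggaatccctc
F7 (chr8:13025784-13026033): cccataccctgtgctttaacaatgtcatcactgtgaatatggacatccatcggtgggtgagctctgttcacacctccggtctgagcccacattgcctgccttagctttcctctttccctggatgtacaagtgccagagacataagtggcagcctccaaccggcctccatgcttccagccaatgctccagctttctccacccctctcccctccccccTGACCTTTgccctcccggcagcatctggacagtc
Serpinc1 (chr1:160978333-160978582): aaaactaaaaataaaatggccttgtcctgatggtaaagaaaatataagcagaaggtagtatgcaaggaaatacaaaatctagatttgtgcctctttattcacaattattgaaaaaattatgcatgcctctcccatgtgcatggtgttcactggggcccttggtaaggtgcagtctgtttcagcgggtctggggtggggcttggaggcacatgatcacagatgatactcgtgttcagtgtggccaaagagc

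The promoter table of RefSeq held 9 of the 10 members, all except Plg. The HNF1 element GTTAAT, part of the site of a hepatocyte transcription factor, was found 43 bases before the RefSeq start of Fga and 29 bases before that of Fgb. The RefSeq start of Fga lies inside the GENCODE span given above, so that the last 77 bases of its window, this element included, fall in the first exon of GENCODE. Among all 32817 promoter windows of this length 6.44% held it. The C/EBP element TTGCNNAA was found before Fga, Fgb and F9, and in 9.57% of all windows. The HNF4 element AAAGGTCA was found before F7 alone, 34 bases from the start, and in 1.34% of all windows. Only exact matches inside the window counted. The window of F9 ends in aaaggtc, so a match running past its start could not be seen. Neither the TATA element TATAAA (12.4% of all windows) nor the FOXA element TGTTTAC (3.16%) was found before any of the 9. No element overlapped another, and a match describes the letters only.

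Compared per length of transcript in wild type, the members spanned a wide range. Fgg, the fibrinogen gamma chain, was highest at 51.2 ± 14.8 RPKM (CPM per kilobase of transcript; SD, n = 4). F9, the X-linked factor whose loss causes haemophilia B, was lowest at 0.339 ± 0.144 RPKM. Plg had 41.1 ± 14.1 RPKM, Fga 39.4 ± 13.4 RPKM and Fgb 33.1 ± 10.3 RPKM. The gaps between the means of this leading group stood inside the spread between libraries. Within each library, however, Fgg exceeded Plg, and Fga exceeded Fgb, in 7 of 7 libraries. Only the place of Plg was unsettled, as it exceeded Fga in 3 of 7 libraries. F2 followed at 24.5 ± 7.65 RPKM. Serpinc1, at 11.4 ± 3.0 RPKM, and F10, at 10.7 ± 2.54 RPKM, could not be told apart, and Serpinc1 was the higher of them in 4 of 7 libraries. F5, F7 and F9 came last in that order, and each exceeded the next in 7 of 7 libraries. In knockout the same genes headed and closed the order, Plg came after Fgb instead of before Fga, and F10 came before Serpinc1. The lengths are those of the principal transcript of GENCODE M21, the longest where several shared the best rank. That of Serpinc1 has 4970 bases and that of F10 2503. A shorter transcript would raise the level per length, so the place of Serpinc1 rests on this choice. With all exons of a gene merged, Serpinc1 came after F10 and Plg after the fibrinogen chains.

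**Figure D1:**
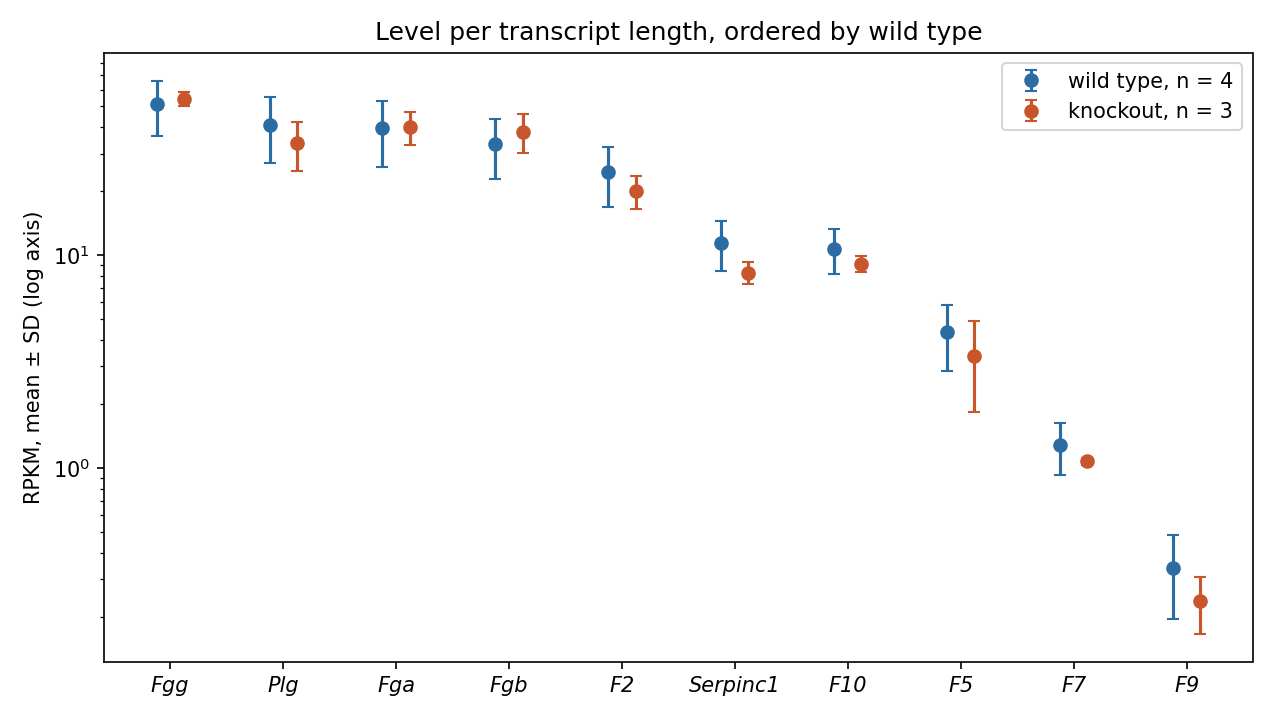
Level of each coagulation gene in RPKM on a log axis (mean with SD as bars; wild type n = 4 in blue, knockout n = 3 in orange), ordered by the wild-type mean. Fgg is highest and F9 lowest in both genotypes, and the SD bars of the genotypes overlap for all 10 genes.

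The members were detected in every library, and all 10 passed the filter on low counts. None of the 10 rose or fell in the knockout livers by the edgeR quasi-likelihood test over 16226 genes, at a Benjamini-Hochberg adjusted p under 0.05. Over all tested genes 5.02% were called, 258 of them (1.59%) higher and 556 (3.43%) lower in knockout. Limma-voom and DESeq2 also called 0 of the 10. The alternatives that did call members lower, a block for replicate number and the removal of wild type replicate 2, are given further below. By edgeR 1 member, Serpinc1, had an unadjusted p under 0.05, against 21.8% of all tested genes. The CPM of wild type and knockout overlapped for all 10 members, whereas 20.6% of all tested genes did not overlap (9.83% higher and 10.8% lower in knockout). The median log2 fold change of the 10 was -0.27, beside 0.01 over all tested genes. Leaving out 1 library moved this median to as low as -0.43 (wild type replicate 2) and as high as -0.099 (wild type replicate 3). There were 7 members lower and 3 higher in the knockout mean. In bulk tissue fewer cells of a type and less RNA per cell cannot be told apart.

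The fibrinogen chains had equal or higher means in knockout, within the spread between libraries. The ratio of the knockout to the wild-type mean was 1.02 for Fga, 1.15 for Fgb and 1.06 for Fgg. Fga had 112, 58.9, 142 and 94.4 CPM in wild type replicates 1 to 4 and 125, 93.2 and 92.9 CPM in knockout replicates 3 to 5. All 3 knockout values lay inside the wild-type range, and the gene's log2 fold change came to 0.03 ± 0.24 (SE; adjusted p of edgeR 0.964). It ran from -0.17 without wild type replicate 2 to 0.23 without wild type replicate 3. Fgb, the chain with the most reads, had 139, 75.7, 169 and 121 CPM in wild type, against 179, 121 and 135 CPM in knockout. The highest library was knockout replicate 3, just above wild type replicate 3, and the gene's log2 fold change came to 0.20 ± 0.23 (SE; edgeR adjusted p = 0.67). The 95% interval of the fold ran from 0.801 to 1.64, and leaving out 1 library gave log2 fold changes of 0.0052 (wild type replicate 2), 0.016 (knockout replicate 3) and 0.37 (wild type replicate 3). Fgg had 96.4, 54.1, 113 and 83.3 CPM in wild type, against 99.98, 86.6 and 88.9 CPM in knockout. Its knockout libraries were closer to each other than the wild-type ones, with a log2 fold change of 0.08 ± 0.20 (SE; edgeR adjusted p = 0.853) that turned to -0.10 without wild type replicate 2. A secreted fibrinogen molecule carries the chains in equal number. Per length, Fga, Fgb and Fgg made up 31.6 ± 1.07%, 26.8 ± 0.194% and 41.6 ± 1.06% of the fibrinogen signal in wild type. In knockout the shares were 30.2 ± 1.14%, 28.6 ± 1.87% and 41.2 ± 2.58%.

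**Figure D2:**
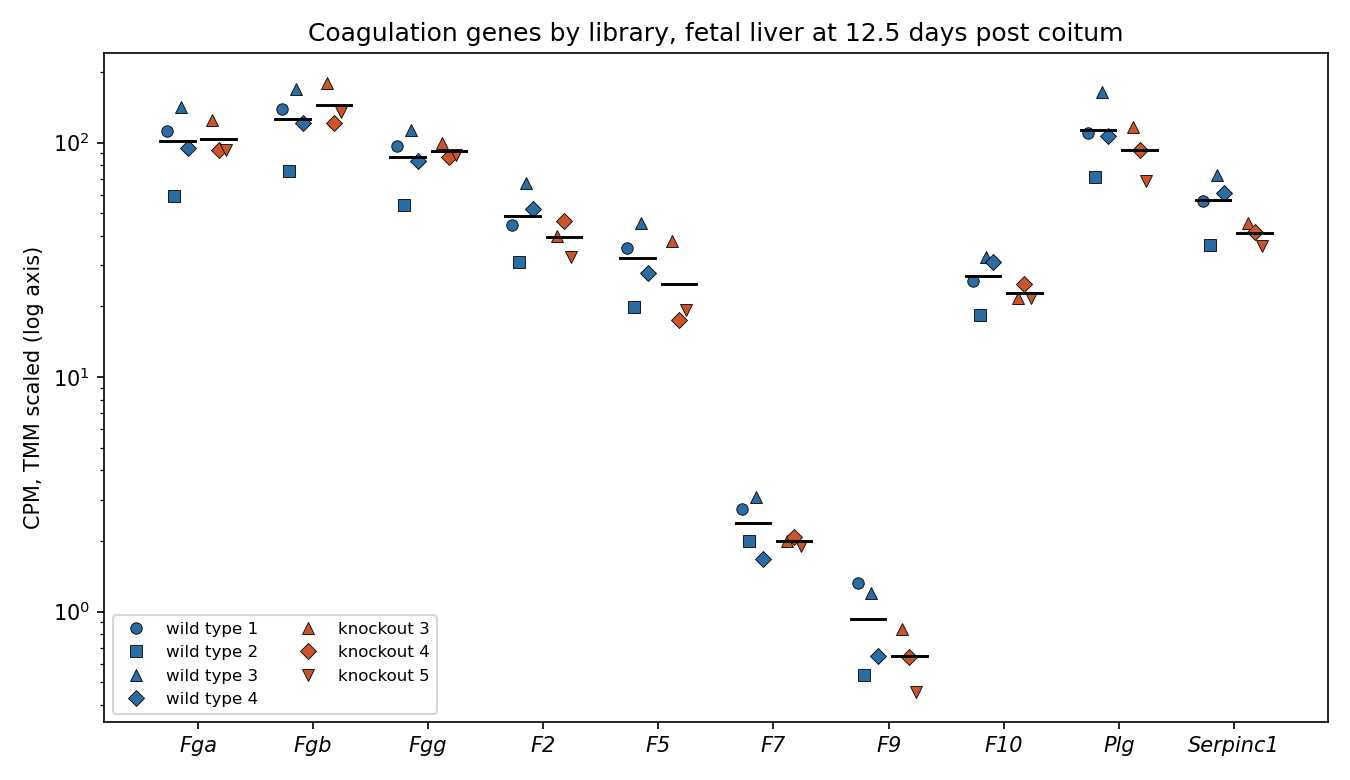
CPM of each coagulation gene in each library on a log axis (blue wild type, orange knockout; one symbol per replicate number; black lines are group means). The 2 genotypes overlap for all 10 genes, and wild type replicate 2 (squares) is the lowest wild-type library for 9 of them.

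The precursors of the clotting proteases and their cofactor had lower means in knockout, within the spread between libraries. F2, prothrombin, had 44.6, 30.8, 67.3 and 52.2 CPM in wild type, against 40.0, 46.5 and 32.5 CPM in knockout. Wild type replicate 2 was the lowest of the 7, and the gene's log2 fold change came to -0.30 ± 0.23 (SE; edgeR adjusted p = 0.488). F10, the protease that cuts prothrombin, had 25.7, 18.4, 32.4 and 31.003 CPM in wild type, against 21.8, 25.0 and 21.6 CPM in knockout. Its knockout values were tightly grouped, at 22.8 ± 1.87 CPM, inside the wild-type range, with a log2 fold change of -0.24 ± 0.18 (SE; edgeR adjusted p = 0.488). F5, the cofactor of factor X, had 35.6, 19.9, 45.6 and 27.9 CPM in wild type, against 38.0, 17.6 and 19.2 CPM in knockout. Knockout replicate 3 stood with the higher wild-type libraries and the other knockout libraries below all wild-type ones. F5 had a log2 fold change of -0.37 ± 0.31 (SE; edgeR adjusted p = 0.531), with values from -0.81 (without knockout replicate 3) to -0.16 (without wild type replicate 3) when 1 library was left out.

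F7 and F9 were rare transcripts. F7, the protease that starts clotting with tissue factor, was covered by 66 to 113 reads per library. It had 2.74, 2.0, 3.09 and 1.68 CPM in wild type, against 2.0, 2.07 and 1.91 CPM in knockout. The knockout libraries sat inside the wild-type range, with a log2 fold change of -0.25 ± 0.26 (SE; edgeR adjusted p = 0.615). F9 was covered by 16 to 44 reads per library. It had 1.32, 0.537, 1.20 and 0.644 CPM in wild type, against 0.847, 0.640 and 0.456 CPM in knockout. Knockout replicate 5 was lowest, and the gene's log2 fold change came to -0.50 ± 0.40 (SE; edgeR adjusted p = 0.505). The 95% interval of F9, from 0.382-fold to 1.30-fold, was the widest of the 10, so that at this depth and spread a 2-fold fall could not be told from no difference. With 1 library left out, the log2 fold change ran from -0.47 to -0.10 for F2, from -0.39 to -0.13 for F10, from -0.39 to -0.096 for F7 and from -0.73 to -0.29 for F9. The value nearest 0 came without wild type replicate 3 for F2, F10 and F7 and without wild type replicate 1 for F9. The value farthest from 0 came without wild type replicate 2 for F2 and F10, wild type replicate 4 for F7 and knockout replicate 3 for F9. For 8 of the 10 members the interval lay within 2-fold in both directions, the exceptions being F9 and F5 (from 0.479-fold to 1.25-fold).

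Plg, the precursor of the protease that dissolves fibrin, had 110, 71.1, 165 and 107 CPM in wild type, against 117, 92.8 and 68.8 CPM in knockout. Wild type replicate 3 was far above the rest, and the log2 fold change of -0.29 ± 0.25 (SE; edgeR adjusted p = 0.553) was -0.05 without it. Leaving out another library gave -0.11 (knockout replicate 5), -0.47 (wild type replicate 2) and -0.49 (knockout replicate 3). Serpinc1, the inhibitor of thrombin and activated factor X, had 56.5, 36.7, 72.6 and 60.8 CPM in wild type, against 45.6, 41.7 and 36.1 CPM in knockout. All knockout libraries lay below wild type replicates 1, 3 and 4, while wild type replicate 2 lay among them. Averaged by genotype, Serpinc1 stood at 56.6 ± 14.9 CPM (wild type, SD, n = 4) against 41.1 ± 4.79 CPM (knockout, SD, n = 3). Its log2 fold change of -0.46 ± 0.20 (SE) had an unadjusted p of 0.0398 and an edgeR adjusted p of 0.206. Without wild type replicate 2 it was -0.63 with an edgeR adjusted p of 0.022; with each other library left out in turn the adjusted p ran from 0.214 to 0.485. Where the annotation runs Zbtb37 on the opposite strand across the end of Serpinc1, reads of the pair can be told apart only if strand was used in counting, which the sources used here do not give. Zbtb37 had a log2 fold change of 0.25 ± 0.14 (SE; edgeR adjusted p = 0.337). The spans of Plg and Slc22a3 also overlap on opposite strands, and those of Fgg, F5 and Serpinc1 hold noncoding or predicted genes, and 2 of these, in F5 and in Serpinc1, are on the same strand, where strand cannot separate reads.

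The authors' deposited table held no member past its threshold, with an adjusted p of 0.129 for Serpinc1 and 0.465 or more for the other members. Of the 15548 genes in the authors' deposited table, a share of 10.9% passed an adjusted p of 0.05. Its log2 fold changes were -0.45 for Serpinc1 and 0.18 for Fgb.

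**Figure D3:**
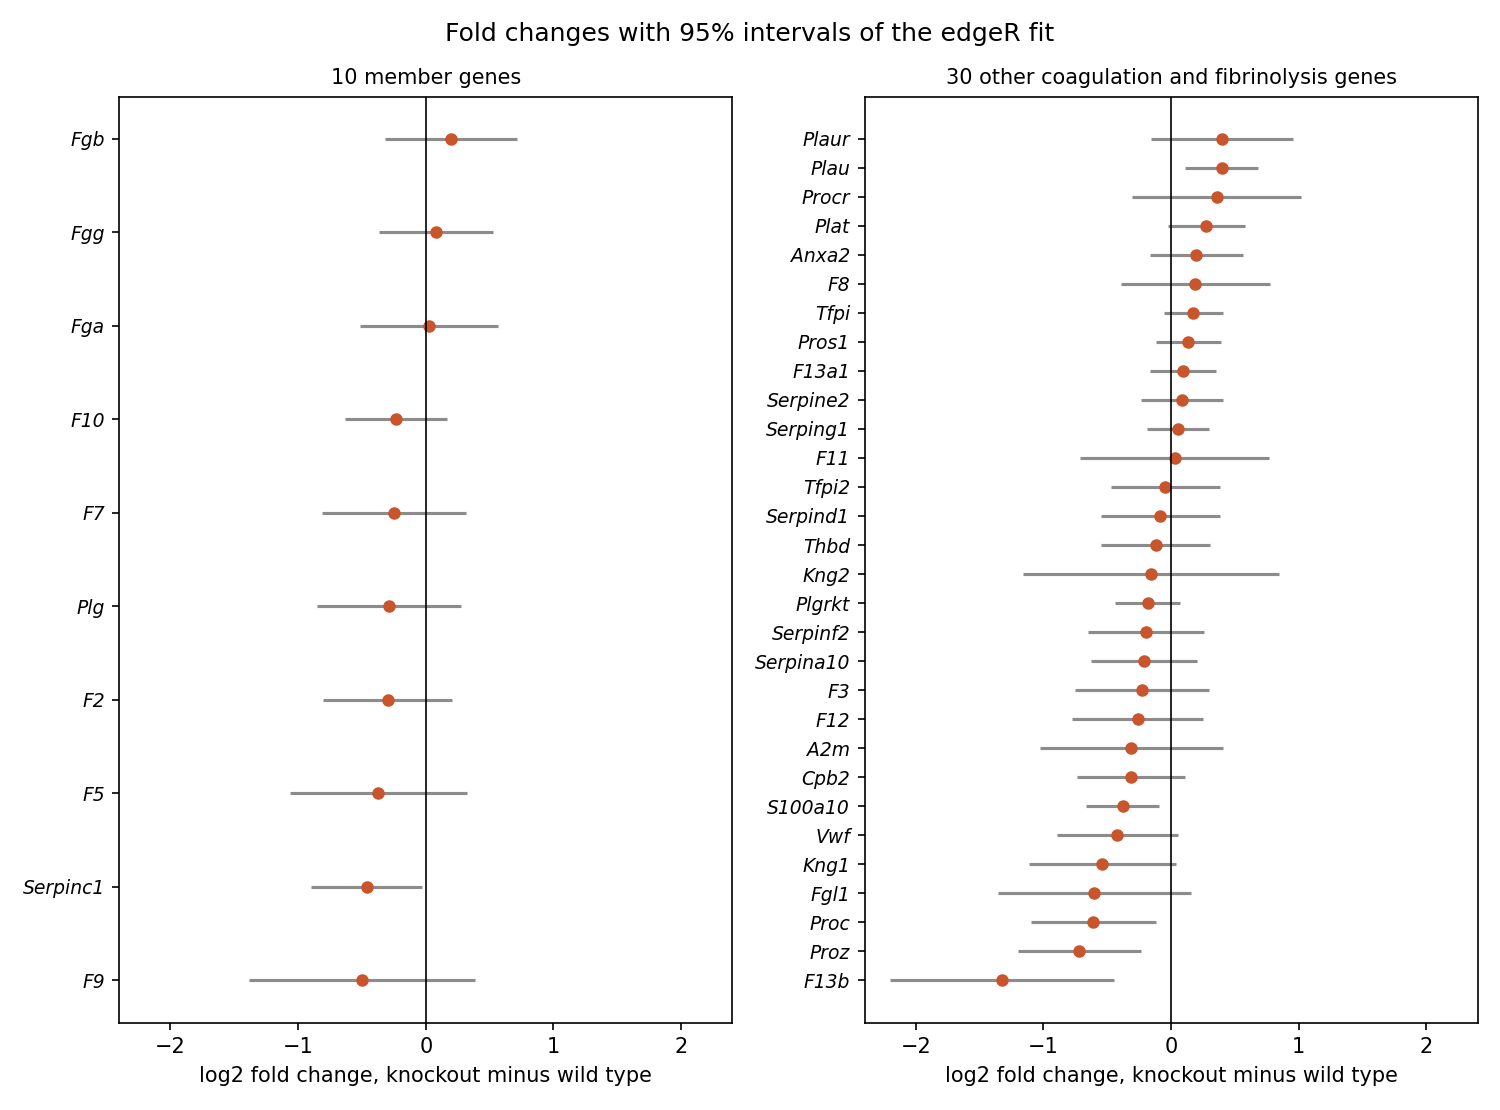
Log2 fold change, knockout minus wild type, with the 95% interval of the edgeR fit for the 10 members (left) and 30 other coagulation and fibrinolysis genes (right), sorted by size. Serpinc1 is the only member whose interval, from -0.90 to -0.03, leaves out 0; at the right F13b (-1.32) is lowest.

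The spread between wild-type libraries was wide and shared by the members. Wild type replicate 2 was the lowest wild-type library for 9 of 10 members, the exception being F7, and for 29.2% of all tested genes. Wild type replicate 3 was the highest for 9 of 10, the exception being F9, and for 19.4% of all tested genes. The ratio of replicate 3 to replicate 2 ran from 1.55 to 2.41 over the members, with a median of 2.21. The coefficient of variation over the wild-type libraries had a median of 31.1% in the members, from 23.6% for F10 to 42.4% for F9. It was 11.1% over the 11218 tested genes with at least 5 CPM in wild type. Of the members 8 reach that level, while F7 and F9 lie below it, where counting noise adds to the spread. Most of the 12 hepatoblast markers followed the same libraries. Replicate 2 was lowest for 10 of them, the exceptions being Dlk1 and Krt8. Replicate 3 was highest for 9, the exceptions being Apoa1, Krt8 and Krt18. The summed level of the 12 markers ran from 6331 to 13254 CPM in wild type and from 7825 to 10017 CPM in knockout.

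The genes whose pattern over the 7 libraries came closest to the mean of the members were Serpina1b, Serpind1, Ttr, Slc25a21 and Acsl1. Likeness was the mean absolute difference between centred log2(CPM + 0.5) values, taken over 10794 genes with at least 5 CPM. It was 0.0422 for Serpina1b, a liver protease inhibitor, and 0.0535 for Serpind1, heparin cofactor II, another inhibitor of thrombin. It was 0.0604 for Ttr, the plasma carrier of thyroxine, 0.0637 for Slc25a21 and 0.0684 for Acsl1, a long-chain acyl-CoA synthetase. The median over all genes compared was 0.283. Among the members themselves Plg was nearest to their mean (0.102) and F5 farthest (0.213).

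**Figure D4:**
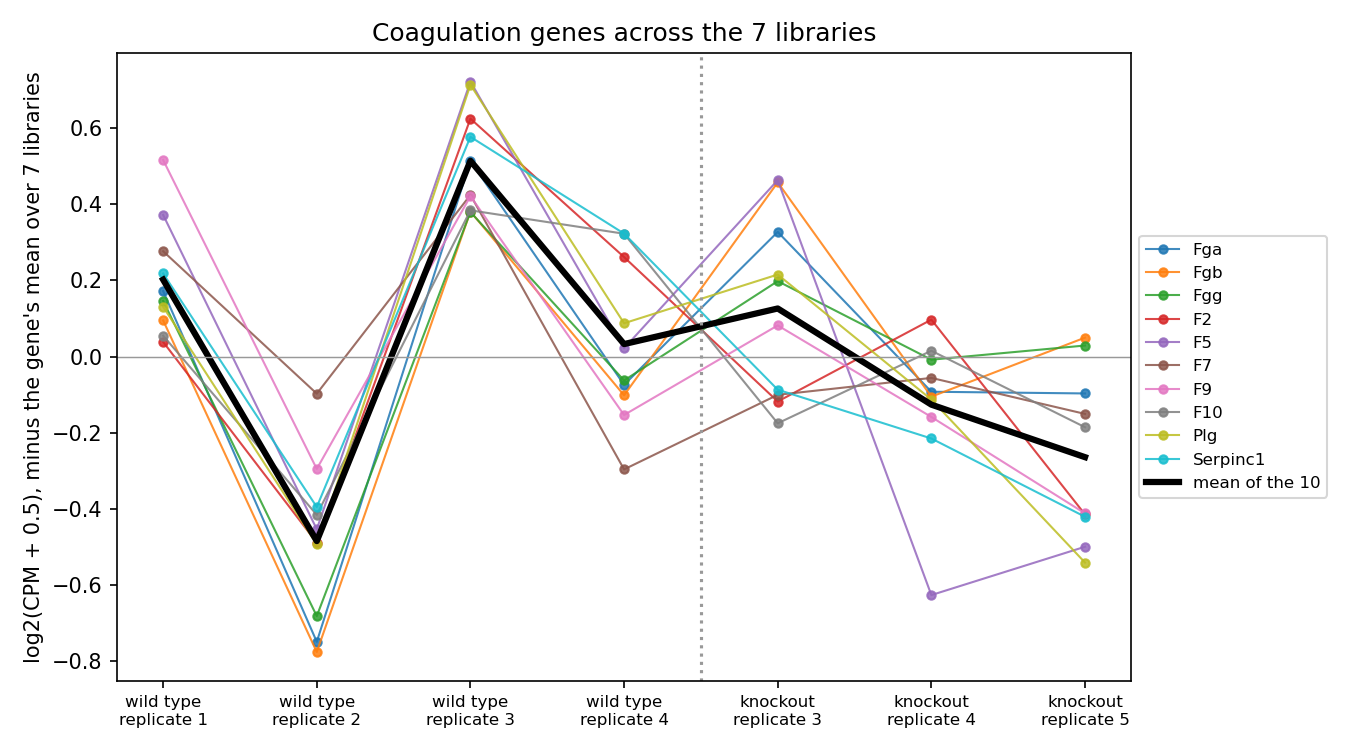
Centred log2(CPM + 0.5) of the 10 coagulation genes in each library, with their mean as a thick black line; lines only link the points of a gene, and the dotted line parts wild type from knockout. The mean of the members is -0.48 in wild type replicate 2 and 0.51 in wild type replicate 3, farther apart than any pair of knockout libraries (0.13 to -0.26).

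Set against the hepatoblast markers in the same library, the members as a whole did not separate the genotypes. They had 56.5, 58.1, 61.3 and 63.2 reads per 1000 hepatoblast marker reads in wild type and 66.7, 60.2 and 63.5 in knockout. The mean ratio of knockout to wild type was 1.06, or 1.02 with Alb and Afp alone as the denominator. Alb and Afp make up most of the marker sum, so the second ratio is no independent check of the first. Single members departed from the ratio of the whole set in opposite directions. Fgb had 12.6 ± 0.520 reads per 1000 marker reads in wild type and 16.3 ± 2.17 in knockout, and Fgg 8.73 ± 0.252 and 10.4 ± 0.822. Both were higher in every knockout library than in any wild-type library, as were 2.31% of all genes measured this way. Serpinc1 had 5.12, 5.80, 5.48 and 6.62 reads per 1000 marker reads in wild type and 4.55, 4.76 and 4.61 in knockout, lower without overlap, as were 3.21% of all genes. The other 7 members overlapped. The most abundant of the markers were Afp (4939 ± 1584 and 4999 ± 519.8 CPM), Alb (2660 ± 989 and 1990 ± 526 CPM) and Dlk1 (843 ± 96.7 and 676 ± 129.8 CPM), with an edgeR adjusted p of 0.9747, 0.418 and 0.243. One hepatoblast marker of the 12, Ahsg, the plasma protein fetuin-A, fell (104 to 45.6 CPM, edgeR adjusted p = 0.0213), against 3.43% of all tested genes called lower. Apoa1 was not called but was also lower in CPM without overlap (345 to 227 CPM, edgeR adjusted p = 0.0756), as were 10.8% of all tested genes. The median log2 fold change of the 12 markers was -0.29, with 3 above and 9 below 0.

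Within the set, fibrinogen took a larger share of the reads in every knockout library than in any wild-type library, a comparison made after the data had been seen and given with no test. The 3 fibrinogen chains took 55.7, 51.2, 52.3 and 51.6% of the members' reads in wild type and 60.4, 57.1 and 63.7% in knockout, with no overlap. Per 100 Fgb reads, Serpinc1 had 40.7, 48.5, 42.8 and 50.2 reads in wild type and 25.5, 34.5 and 26.8 in knockout. Fga, F5, F9, Plg and Serpinc1, 5 of 9 members, were lower per Fgb read in every knockout library than in any wild-type library, as were 8.34% of all genes; 0 members were higher without overlap, against 0.458% of all genes. These ratios share their denominator, and they were chosen after the data had been seen. Fgb also had the highest ratio of knockout to wild-type mean of the members (1.15), so every other member came out lower against it on average. The members varied together across libraries, which narrows these ratios within a genotype. The share over all genes is therefore not a like comparison. Without knockout replicate 4 the count was 8 of 9. With Fga or with Fgg as the denominator it was 1 of 9, Serpinc1 each time. Serpinc1 had 57.0 ± 7.35 reads per 100 Fga reads in wild type and 40.0 ± 4.23 in knockout (SD; 4.71% of all genes were lower without overlap), and 65.8 ± 6.07 and 44.8 ± 3.84 per 100 Fgg reads (7.54%). Plg had 79.2, 94.0, 97.4 and 88.1 reads per 100 Fgb reads in wild type and 65.3, 76.8 and 51.1 in knockout.

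**Figure D5:**
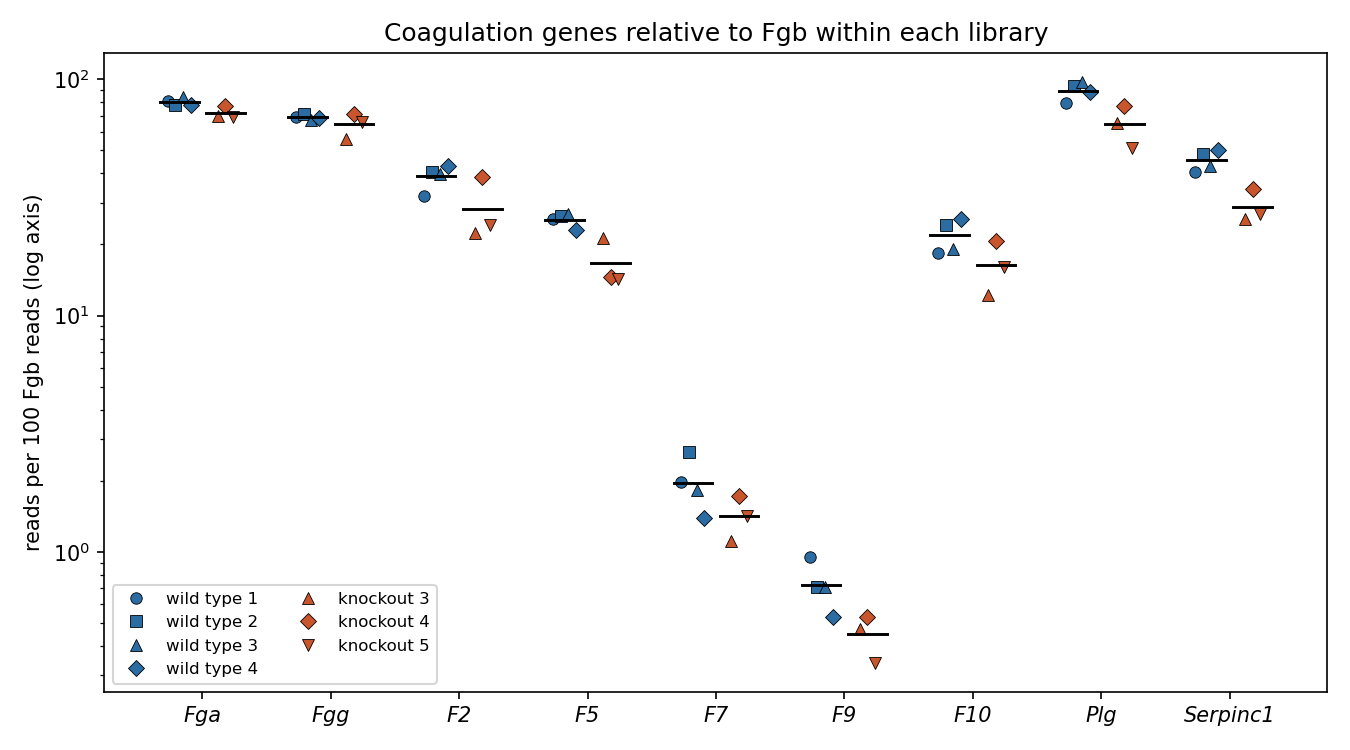
Reads of 9 coagulation genes per 100 Fgb reads in each library on a log axis (blue wild type, orange knockout; black lines are group means). Serpinc1 has 45.5 ± 4.53 in wild type and 28.9 ± 4.86 in knockout (mean ± SD) with no overlap, while Fgg, F2, F7 and F10 overlap.

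Of 33 other genes of coagulation and fibrinolysis, 30 were tested, and edgeR called 0 of them in either direction. Limma-voom also called 0, while DESeq2 called F13b and Proz lower and 0 higher. The median log2 fold change of the 30 was -0.14, with 12 above and 18 below 0. Of the 30, 5 had an unadjusted edgeR p under 0.05, against 21.8% of all tested genes, so the count does not exceed that share. The most abundant over the 7 libraries were Serpinf2 (antiplasmin), Anxa2 and S100a10, which together bind plasminogen at cell surfaces, and Tfpi, the inhibitor of the tissue factor pathway. Serpinf2 stood at 201 ± 55.5 CPM in wild type, against 175 ± 30.2 CPM in knockout (edgeR adjusted p = 0.617). Anxa2 had 174.5 ± 26.2 and 200.2 ± 46.1 CPM (edgeR adjusted p = 0.524), S100a10 107 ± 12.6 and 81.9 ± 12.1 CPM (edgeR adjusted p = 0.121), and Tfpi 79.0 ± 8.10 and 89.1 ± 6.36 CPM (edgeR adjusted p = 0.36). The remaining genes with an unadjusted p under 0.05 are named for that value, after it was seen. F13b, the carrier subunit of the fibrin-linking factor XIII, had the largest negative log2 fold change, -1.32 ± 0.40 (3.95 and 1.58 CPM; edgeR adjusted p = 0.0842). Proz, protein Z, had -0.72 ± 0.22 (edgeR adjusted p = 0.0872), and Proc, the anticoagulant protein C, -0.61 ± 0.22 (edgeR adjusted p = 0.14). Plau, the urokinase plasminogen activator, had 0.40 ± 0.13 (edgeR adjusted p = 0.107). Without wild type replicate 2, F13b, Proz and Proc, 3 genes of the list, passed the threshold as lower. Serpina5 and Hrg had too few reads to be tested, and Klkb1 was not matched by name.

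The 9 genes of the vitamin K cycle and of the export of factors V and VIII were all tested, and edgeR, limma-voom and DESeq2 called 0 of them. Their median was -0.06, with 3 above and 6 below 0. Of the 9, 2 (Nqo1 and Tpst1) had an unadjusted edgeR p under 0.05, near the 21.8% of all tested genes. In CPM 3 of the 9 (Vkorc1, Nqo1 and Tpst1) were lower in knockout without overlap, against 10.8% of all tested genes. Lman1, the receptor that carries factors V and VIII out of the endoplasmic reticulum, stood at 171 ± 11.9 CPM in wild type, against 167.5 ± 20.9 CPM in knockout (edgeR adjusted p = 0.891). Its partner Mcfd2 had 77.6 ± 5.28 and 74.2 ± 3.26 CPM (edgeR adjusted p = 0.725). Vkorc1l1, a vitamin K epoxide reductase, had 67.5 ± 5.65 and 68.1 ± 5.76 CPM (edgeR adjusted p = 0.963). Tpst1, which adds sulfate to tyrosines of secreted proteins, had 39.3 ± 1.66 and 32.5 ± 2.50 CPM (edgeR adjusted p = 0.136). Among the 12 hepatocyte transcription factors, 1 fell and 0 rose, with a median of 0.16. Of all tested genes 3.43% were called lower and 1.59% higher, so 1 call says little about the list. The gene that fell was Nr1h4, the bile acid receptor FXR, at 6.95 ± 0.770 CPM in wild type against 3.24 ± 1.01 CPM in knockout (log2 -1.10 ± 0.22; edgeR adjusted p = 0.0234). Leaving out any of wild type replicates 1 and 4 and knockout replicates 4 and 5 ended this call, with an edgeR adjusted p of up to 0.0876. Hnf4a, a main driver of hepatocyte genes, had 50.2 ± 9.75 and 48.0 ± 9.75 CPM (edgeR adjusted p = 0.862). Prox1 had 26.9 ± 6.63 and 33.7 ± 11.04 CPM (edgeR adjusted p = 0.443), Cebpa 17.7 ± 2.95 and 14.0 ± 1.64 CPM (edgeR adjusted p = 0.229), and Nr5a2 8.09 ± 1.94 and 10.4 ± 2.24 CPM (edgeR adjusted p = 0.345).

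Markers of megakaryocytes, macrophages, erythroid cells and endothelial cells moved with genotype, and no marker of the lists was at 0 in any library. Over all tested genes 3.43% were called lower and 1.59% higher in knockout, to be set beside the counts that follow. Megakaryocytes are a further source of factor V. Of 12 megakaryocyte and platelet markers 9 fell, and their summed level was 410 to 546 CPM in wild type and 251 to 263 CPM in knockout. Of 12 macrophage markers 6 fell (454 to 509 CPM and 308 to 410 CPM), and of 12 erythroid markers 11 fell (49611 to 88771 CPM and 11797 to 15685 CPM). Of 12 endothelial markers 3 rose (275 to 365 CPM and 378 to 458 CPM), and of 10 mesenchymal and stellate markers 1 rose and 1 fell. Reads in no gene made up 4.89 to 5.94% of reads in wild type and 6.75 to 7.61% in knockout, and reads without a unique alignment 15.2 to 19.6% and 11.3 to 14.7%, without overlap in either. The part of these cells and of these library differences in the levels of the coagulation genes was not tested. With libraries scaled to their totals, the median gene stood at a log2 fold change of 0.14 in place of 0.01, and 651 genes were called higher and 393 lower. Under that scaling no member changed sign or passed the threshold.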

How the data were processed

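Messenger RNA libraries had been made from total RNA with a stranded TruSeq kit, per the labels' protocols. Build mm10 and the tools HTSeq, TopHat2, DESeq, DESeq2 and cutadapt (version 1.4.2) are listed in the submitters' processing notes, without settings. Each deposited count file gives whole reads per gene and 5 summary lines, which were left out. In the authors' deposited table the baseline is a signal (mean normalized count), the change a log2 fold change with its standard error, the test score a Wald statistic, and each p-value unadjusted and adjusted.

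Members were found by name in that table and joined by identifier. The main test was the quasi-likelihood test of edgeR 4.0.16 (R 4.3.3), with genotype as the single term over all 7 libraries, TMM scaling, and 16226 genes kept by filterByExpr (22698 removed). The test was also run on counts simulated with each gene varying independently. Such counts lack the spread between libraries that the members share, so that run does not bear on it. Positions and lengths came from GENCODE M21, matched without version. Alternatives were limma-voom (limma 3.58.1), DESeq2 1.42.0, scaling by RLE or by totals, removal of globin genes, no filter or one of 5 CPM in 3 libraries, a replicate block, and each library left out. Named genes were the members, from each pathway list the called genes and up to 4 of the most abundant others, and the 5 genes most like the members. Members and lists were chosen with earlier results of these data known. One gene of the planned coagulation list is not reported here and is left out of the counts over that list, while the fit kept all genes.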

Additional observations from a re-analysis of the deposited data

Results flagged for a closer look

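Of 61 pathway genes checked for a wild-type library far from the other 3, 1 stood apart. Ggcx, the carboxylase that vitamin K serves, had 26.9 CPM in wild type replicate 3, against 20.998 to 21.8 CPM in the other wild-type libraries. Chance alone would set apart about 1 gene in 20. Wild type replicate 3 was also the highest wild-type library for 9 of the 10 coagulation genes.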

How the results depend on the processing

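Across 15 alternatives, 148 values of the 10 members were computed, of which 6 changed sign and 6 passed the threshold. With 1 library left out, the log2 fold change of Fga ran from -0.17 to 0.23 and that of Fgg from -0.10 to 0.24. The sign of Fga turned without knockout replicate 3 and without wild type replicates 2 and 4, that of Fgg without wild type replicate 2. With each library left out in turn, genes higher numbered 24 to 418, genes lower 116 to 753, members lower 0 to 1, other coagulation genes lower 0 to 3 and hepatocyte transcription factors lower 0 to 1. With total-count scaling 651 genes were higher. DESeq2 gave 623 higher and 1047 lower, with 2 other coagulation genes lower, and no filter on low counts gave 1 of these lower.

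The replicate block uses the numbers 3 and 4, the only ones that occur in both groups, and leaves 1 residual degree of freedom. It called 852 genes higher and 1204 lower, 5 members lower (F2, F5, F10, Plg and Serpinc1), 1 other coagulation gene higher and 8 lower, and 1 hepatocyte transcription factor higher. With the block the log2 fold change was -0.10 for Fga and -0.064 for Fgg. Deviations from the group mean correlated at 0.547 and 0.50 across genes between same-numbered libraries, and at -0.578 to 0.329 between others. The labels do not say that a number marks a shared litter or batch, and with 2 pairs this is a hint only. The cause of these changes was not tested. At 16 to 44 reads, F9 is the member that depth limits most.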
